A study of Drosophila melanogaster with 384 samples.

Results

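The most covered stretches of open chromatin were taken from single-cell ATAC-seq profiles of sens-GFP+ cells of the Drosophila melanogaster eye-antennal disc, the larval epithelium that gives rise to the eye, the antenna and the head capsule. Regions were selected on their summed counts: a region was kept when its raw counts over all 72 cells came to 20 or more. This applied to 1139 of the 68775 regions listed, or 1.66%. The other 67636 listed regions serve as the comparison. All cells belonged to 1 group, sens-GFP+, sorted from 200 discs of late (L3) larvae of the strain w; F2-B/CyO. In this strain GFP is driven by F2-B, an intronic enhancer of senseless (sens) targeted by Atonal, and CyO is a balancer of the second chromosome carried by the same flies. The sort thus reports the activity of 1 enhancer, not the expression of a protein. There was no other sort, no replicate of this one and no GFP-negative control in the table, and the cells, which share 1 sort, give no replicate error. All comparisons below are therefore descriptions without a p-value.

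ATAC-seq uses the Tn5 transposase, which inserts sequencing adapters where DNA is free of nucleosomes, so that promoters, enhancers and other open sites collect reads. In the developing eye, the proneural factor Atonal selects the founder photoreceptor R8 at the morphogenetic furrow, and Senseless, a zinc finger protein, maintains the R8 fate. Some promoters and enhancers are open across a whole tissue, while others open in 1 cell type. Proteins that bind GA-rich DNA, such as GAGA factor (the product of Trl) and Pipsqueak, and the epithelial factor Grainyhead are known for keeping such elements open. In a profile of few reads per cell, a region collects many counts when it is open in many cells, gives several reads per cell or is long. Listed regions are pieces of the non-coding genome that the authors cut by conservation across species.

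The sequences below are shown because each is the central 300 bases of a distal region with 20 or more counts that carries a core searched for further on. They were taken from the RefSeq copy of the release 6 genome (dm6), plus strand. Capitals mark matches on either strand to the core of GAGA factor, GAGAGAG, in the windows near Tet and hwt. They mark ACCGGTT, the core of Grainyhead, near heph, the Atonal-type E-box CAGGTG near Trl and the E-box CAGCTG near CG31797. The names are those of the protein-coding genes with the nearest transcription start site (TSS).
Tet, chr3L:2823546-2823845: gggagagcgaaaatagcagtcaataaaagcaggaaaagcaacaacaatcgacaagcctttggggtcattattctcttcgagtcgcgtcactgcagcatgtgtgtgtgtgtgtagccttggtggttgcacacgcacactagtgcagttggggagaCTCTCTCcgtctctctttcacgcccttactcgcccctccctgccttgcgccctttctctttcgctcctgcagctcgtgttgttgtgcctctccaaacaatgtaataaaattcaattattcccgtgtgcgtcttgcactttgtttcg
hwt, chrX:12574716-12575015: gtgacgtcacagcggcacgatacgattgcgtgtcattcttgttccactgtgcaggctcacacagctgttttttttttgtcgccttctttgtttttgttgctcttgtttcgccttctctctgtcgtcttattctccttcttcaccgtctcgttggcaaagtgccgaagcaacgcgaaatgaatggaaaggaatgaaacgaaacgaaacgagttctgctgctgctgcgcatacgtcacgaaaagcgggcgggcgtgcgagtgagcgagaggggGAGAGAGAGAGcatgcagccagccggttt
heph, chr3R:31943920-31944219: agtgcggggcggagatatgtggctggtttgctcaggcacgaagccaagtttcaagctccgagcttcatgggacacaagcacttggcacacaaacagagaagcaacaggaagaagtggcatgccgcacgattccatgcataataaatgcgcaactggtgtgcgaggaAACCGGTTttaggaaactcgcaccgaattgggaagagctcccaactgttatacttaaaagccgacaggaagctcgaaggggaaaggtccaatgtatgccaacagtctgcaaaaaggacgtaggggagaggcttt
Trl, chr3L:14755525-14755824: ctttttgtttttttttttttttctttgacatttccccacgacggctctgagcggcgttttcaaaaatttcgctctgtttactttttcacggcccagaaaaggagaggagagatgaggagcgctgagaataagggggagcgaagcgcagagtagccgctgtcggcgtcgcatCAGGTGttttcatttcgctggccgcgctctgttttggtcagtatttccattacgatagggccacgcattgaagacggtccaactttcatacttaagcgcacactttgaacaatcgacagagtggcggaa
CG31797, chr2L:19244644-19244943: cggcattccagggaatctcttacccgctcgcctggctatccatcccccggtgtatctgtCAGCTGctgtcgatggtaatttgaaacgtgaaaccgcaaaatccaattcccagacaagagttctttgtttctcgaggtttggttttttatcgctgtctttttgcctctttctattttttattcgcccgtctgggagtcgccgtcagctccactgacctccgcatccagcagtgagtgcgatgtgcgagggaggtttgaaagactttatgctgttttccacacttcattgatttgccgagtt
The window near Tet lay in an intron of that gene, 2068 bp from the TSS, in a region with 50 counts in 28 cells. The window near heph was intronic too, and its region had 41 counts in 27 cells. The region near Trl, the gene of GAGA factor itself, had 37 counts in 25 cells. The region nearest to hwt lay inside another gene, Pits, with 52 counts in 35 cells. The region near CG31797 was intergenic, 16831 bp from the TSS, with 49 counts in 33 cells.

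The 72 cells had between 908 and 5892 counts in listed regions, with a median of 2694.5. No cell column was identical to another. The regions with 20 or more counts held 32376 of the 197425 counts and 2.57% of the listed bases. This is 16.4% of the counts, with a 95% Wilson interval of 16.2 to 16.6%. All intervals cover counting error only, over counts, regions or cells, and no error between sorts. Reads were deduplicated by the authors but lack molecular identifiers, so the counts need not be independent molecules. The selected regions had a median of 25 counts (20 to 78), against 1 count (0 to 19) in the other listed regions. Most were close to the limit, as 773 had 20 to 29 counts, 21.4% had 30 to 39, 10.7% had 40 or more and 42 regions had 50 or more. Exactly 20 counts were found in 11.9% of them, just inside the limit. These had a median length of 1124.5 bp and 15 cells, a promoter share of 59.6% and 17.8 counts per kb. The regions with 19 counts, just outside, had 1159 bp, 14 cells, 68.6% and 16.4 counts per kb at the median. The limit therefore cuts a continuous distribution.

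**Figure D1:**
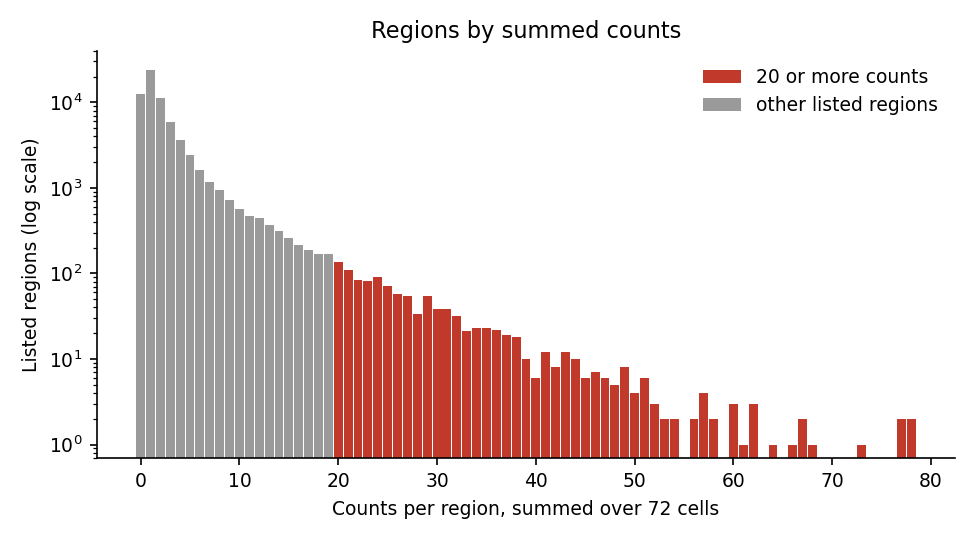
Number of listed regions (log scale) against counts per region, summed over 72 cells. Regions with 20 or more counts, 1139 in all, form the tail that reaches 78 counts, and the other listed regions have a median of 1 count.

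Promoters made up most of the selected regions. Of the 1139, 686 were promoter regions, which overlap 500 bp on either side of an annotated TSS, or 60.2% (57.4 to 63%), against 27.3% (27 to 27.7%) of the other listed regions. The intervals do not overlap, and position was not used in the selection. Here and below, intervals over regions take each region as a separate draw, although all come from 1 sort. Of the selected ones, 17.7% lay in runs next to each other. Seen from the list, 3.58% of all promoter regions had 20 or more counts, against 0.913% of all distal regions, with 453 distal regions among those selected. Cells entered the table after a manual choice by the authors from plots of aggregated reads, and the part of this choice in the promoter share was not tested.

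The difference was in regions that contain a TSS. Among the selected regions, 589 (51.7%) contained a TSS, against 18% of the other listed regions. Promoter regions next to a TSS but without one were 8.52% of the selected and 9.30% of the other regions. Selected promoter regions were longer, at a median of 1310.5 bp against 846 bp, and this split was not matched for length. Intronic regions without any exon base were the most frequent distal class, at 23.1%, against 29.8% of the others. Distal regions with at least 1 exon base numbered 77 (6.76%), against 21%, and intergenic ones made up 9.92%, against 21.9%. Every distal class was thus less frequent among the selected regions, least so the intronic one. The exon class rests on edges as well, since 44 of the 77 had at most 10 exon bases. Counted with more than 10, it held 2.90% of the selected and 9.13% of the other regions, and the intronic class 27% and 41.7%. Of the selected regions with a TSS of a protein-coding gene inside, 92 of 527 (17.5%) held TSS of at least 2 such genes, against 19.5% of the other regions. Overlap with annotated coding bases was mostly by the edge of a region: 35.9% of the selected regions touched at least 1 coding base, against 37.6% of the others, but 4 (0.351%) overlapped more than 10, against 0.405%.

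Distal regions lay at distances from genes similar to those of the rest of the list. Their median distance to the nearest protein-coding TSS was 5000 bp, against 5316 bp for other distal regions. More than 20 kb separated 48 of them (10.6%) from any such TSS, against 12.4%. Among the 5 farthest, the region nearest to CG12362 on 3L, 61079 bp from its TSS, had 36 counts, or 42.6 counts per kb. That nearest to CG41242 on 2R, 125176 bp away, had 20 counts, or 1.17 counts per kb. The promoter share stayed near 60% over most of the range of counts. It was 60.0% at 20 to 24 counts, 60.9% at 25 to 29, 58.6% at 30 to 39 and 55% at 40 to 49. At 50 or more counts it was 78.6% (64.1 to 88.3%), on 42 regions. In the wider classes below the limit the share was lower, with 22.2% in regions without a count, 43.2% at 5 to 9 counts and 56.6% at 10 to 19.

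Selected regions were longer than the others. The selected regions had a median length of 1248 bp (1216 to 1283 bp), against 893 bp for the other listed regions, and ranged from 424 to 195680 bp. The share of promoter regions with 20 or more counts was 1.14% at lengths above 500 and up to 750 bp, 11.2% between 1500 and 2000 bp and 13.1% between 2000 and 3000 bp, but 5.79% above 3000 bp. For distal regions the same classes gave 0.315%, 1.98%, 1.6% and 1.11%, so the share did not go up with length throughout. Promoter regions had the higher share in each length class above 500 bp, with intervals that do not overlap. Ranking by density gave another list: the 1139 regions with most counts per kb, each with at least 19.5, included 675 of those selected by counts (59.3%). The selected regions had a median of 21.5 counts per kb (21 to 22.3), against 1.55 in the other regions, but the rule itself selects on counts.

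**Figure D2:**
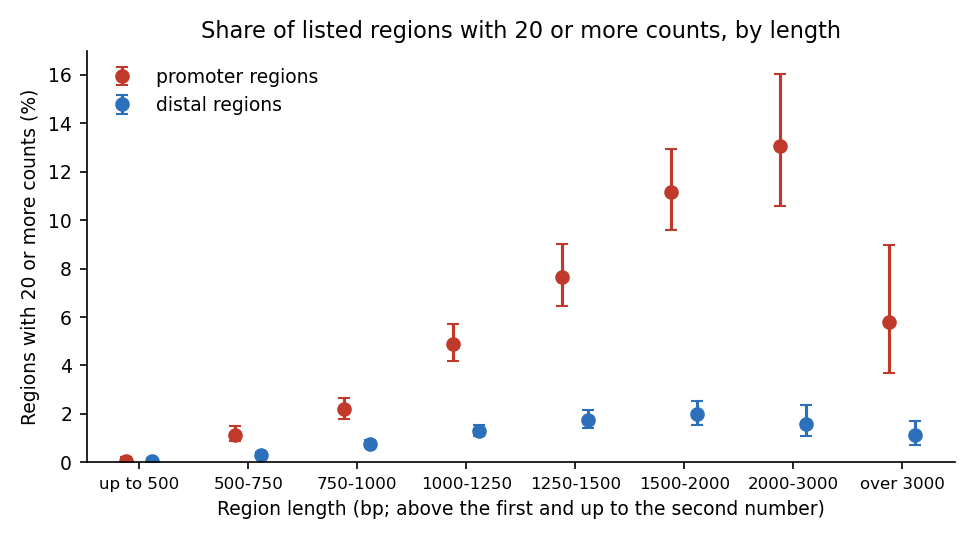
Share of listed regions with 20 or more counts by length class, for promoter and distal regions, with 95% Wilson intervals. Promoter regions reach 13.1% between 2000 and 3000 bp, and distal regions stay at or below 1.98% in all classes.

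The longest and shortest members show both ends of this effect. The 3 longest lay near the centromeres of 3R and 2R. The region from 1 to 195680 on 3R, whose nearest protein-coding TSS is that of Myo81F, 371396 bp away, had 43 counts at 0.22 counts per kb, and 93.1% of its bases were marked as repeats. Those nearest to MFS17 on 2R were 38966 and 39698 bp long, with 41 and 29 counts, or 1.05 and 0.731 counts per kb. In all, 20 selected regions were longer than 5 kb and had between 0.22 and 5.97 counts per kb. For 12 of the 1139 the density was below the mean of the whole table, 2.49 counts per kb. The 3 shortest had the opposite profile. The region at the TSS of Top3beta on X (424 bp) had 49.5 counts per kb, an intronic region of dnr1 nearest to CG11362 on 2R (500 bp) had 52, and one inside CG1677 nearest to brk on X (510 bp) had 45.1.

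The regions with most counts belonged to genes of varied function. The 15 named here had 60 to 78 counts, and their Poisson intervals overlapped, so their order is not resolved. The last place was a tie of 3 regions with 60 counts, at spi, Inx3 and Cad99C. With all of these included, all but 2 were promoter regions. The highest number, 78 counts (61.7 to 97.3), occurred at disco, a zinc finger gene needed for the larval visual nerve and for antenna and leg, on X from 16216577 to 16217897. Single cells had between 0 and 6 of these counts, with a median of 1. A region nearest to CG1888 on 2R, from 9551447 to 9554263, also had 78 counts, of which 10 came from 1 cell. A TSS of ttk, whose BTB zinc finger protein represses neuronal fate, had 77 counts (60.8 to 96.2) on 3R from 31713279 to 31714462.

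Of these, the distal ones were intragenic. The region inside CG8170 on 2R, from 9028040 to 9029583, had 77 counts in 35 cells, 1462 bp from the TSS. The region inside crol, which encodes a zinc finger protein of the ecdysone response, had 67 counts in 34 cells and overlapped exon bases. Counts like those of the promoter regions beside them follow from the ranking itself, which is by counts.

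Regulators of polarity, signalling and RNA processing completed the ranking. The kinase gene par-1, which acts in cell polarity, had a pair of promoter regions with 73 and 62 counts. The RNA-binding protein genes Syp, fus and Sxl had 68, 66 and 61 counts in their promoter regions. The Pipsqueak gene psq had 67 counts, the Mediator subunit gene skd 64, the cadherin gene ds and Amun 62 each, and spi, which encodes an EGF receptor ligand, 60. In no member did the counts reach more than 39 of the 72 cells.

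Cells per region followed the counts, since both come from the entries that the rule summed. A selected region had a count in a median of 19 cells (range 7 to 39), that is, in about 1 cell of 4, while the other regions had a median of 1 cell. Only 7 regions had a count in 36 or more cells. Among promoter regions the most cells were reached at disco and ds, with 39 cells each (54.2% of cells, 42.7 to 65.2%), followed by ttk, psq and fus with 38 cells each. Among distal regions CG8170 and hwt had 35 cells each, crol and Sdc 34 each, and the intergenic region near CG31797 33. The medians were 19 cells for the promoter and 18 for the distal members.

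Counts were spread over cells more evenly in some members than in others. At disco, 33 cells had no count, 21 had 1, 8 had 2 and 10 had 3 or more. At ds, with fewer counts, 33 cells had none and 28 had 1. At the Sxl promoter region 44 cells had none and 10 had 3 or more. The regions of disco and ds thus reached the same number of cells with 78 and 62 counts. Over all members, 27.4% of the entries for a region and a cell were above 0, against 2.90% in the other regions, and 69.8% of these entries were equal to 1, against 86.9%. The selection by summed counts sets these contrasts in large part. Across cells, the ratio of variance to mean had a median of 1.4 (0.761 to 8.19), whereas pure counting error in cells of equal depth gives 1.

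**Figure D3:**
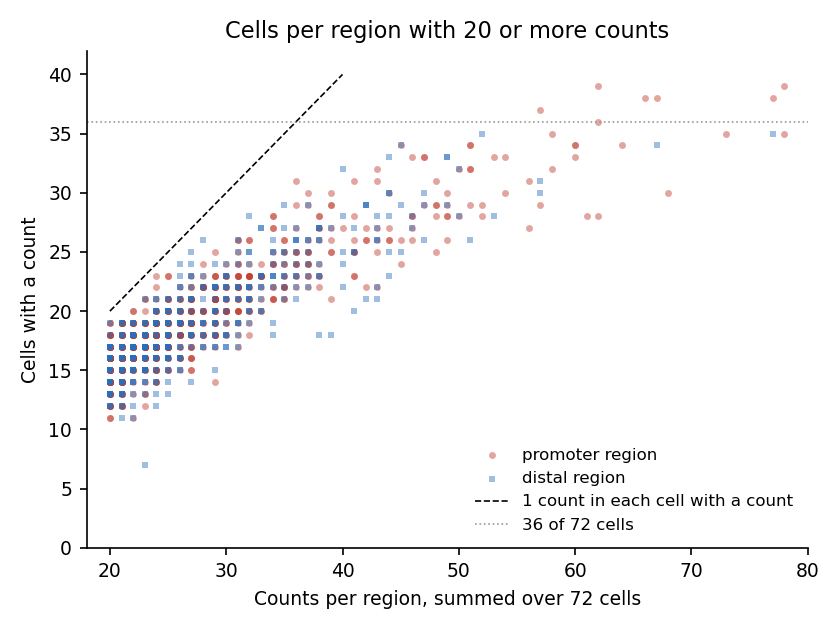
Cells with a count against counts per region for the 1139 regions with 20 or more counts, promoter and distal regions apart. The dashed line marks 1 count in each cell with a count, and 7 regions lie at or above 36 of 72 cells.

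In a few members the counts came from few cells. The region with fewest cells, inside Myo81F on 3R from 748929 to 768705, had 23 counts in 7 cells, and 13 of them (56.5%) came from 1 cell. The next were regions nearest to Ppa on 2R and Orct2 on 3R, with 20 counts each, gpp on 3R with 21 and M7BP on 2R with 22, in 11 cells each. In these 4 the highest cell had 4 to 6 counts. A count in 20 or more different cells was found for 474 of the 1139 regions (41.6%).

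The share of a cell's counts in the selected regions was similar across cells but not equal. It ranged from 9.01% (8.03 to 10.1%) to 24.8% (22.7 to 26.9%), with a median of 17.1%, so the extremes differed by more than counting error. Cells had counts in 11.2 to 48.2% of the 1139 regions, with a median of 27%. The cell with fewest of these regions was also the shallowest, with 908 counts. Within these counts, promoter regions held 53 to 69% per cell, with a median of 61.2%. The arms varied more: of the counts on the main arms, 2R held 9.17 to 47.7% and X 3.24 to 29% in a single cell.

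Several genes were surrounded by more than 1 selected region. Each region was given to the protein-coding gene with the nearest TSS, measured from its edge. In this way the 1139 regions fell to 845 genes, 7.36% of the 11478 genes nearest to at least 1 listed region. Of these genes, 646 had 1 selected region, 140 had 2, and 59 had 3 or more, which is 0.947% of the genes with at least 3 listed regions. The 59 genes held 18.7% of the regions. They were also genes with many listed regions, 25 at the median (at least 4), against 10 for genes with 1 or 2 selected regions and 3 for all genes. Their regions were more often distal: 39.9% were promoter regions, against 64.9% at genes with 1 or 2. The gene with the nearest TSS is not always the host gene, as 66 of the distal members inside a protein-coding gene (21.2%) lay in another gene than the one nearest by TSS.

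The 22 genes with 4 or more selected regions are described first. The homeobox gene hth, which acts with Extradenticle in the antenna, the head capsule and the eye progenitors, had the most, with 8 regions of 92 listed. Their counts were 26, 36, 37, 36, 24, 42, 21 and 25 along 3R, from 10563160 to 10644674, and only the region with 42 counts was a promoter region. At least 1 of them had a count in 61 of 72 cells (84.7%), and a single cell had at most 22 counts. All but the last lay inside hth, the farthest 49814 bp from its TSS. The corepressor gene sbb had 7 of 27. Its promoter regions had 48 counts each, at 23.9 and 88.9 counts per kb, the second value being the highest density among the 1139 regions, and 5 intronic ones had 20 to 31 counts.

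The next genes include those of Grainyhead and GAGA factor, whose cores are marked in the sequences above. The Grainyhead gene grh had 6 of 25 listed regions, with counts of 32, 39, 40, 41, 31 and 29 along 2R between 17800712 and 17814688, and 3 of them were promoter regions. Their Poisson intervals overlapped. Tet, whose protein belongs to the family of methylcytosine dioxygenases, also had 6 regions, all intronic, with 20 to 50 counts. The Pipsqueak gene psq had 5 regions of 42, with 67 counts at 1 TSS and 25 to 30 in the other 4. At Trl, 3 of 8 listed regions were selected, with 37, 30 and 47 counts.

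Notch, neural and Dpp regulators followed. The gene chn (charlatan), which acts in sensory organ and photoreceptor development, had 5 of 32 regions, with 24, 35, 37, 35 and 25 counts on 2R, and 57 of 72 cells had a count in at least 1 of them. The Notch coactivator gene mam had 5 of 51, and the highest was intronic, with 42 counts (30.3 to 56.8) in 29 cells. The region at the TSS of mam had 24 counts. Another promoter region inside mam also had 24, but near the TSS of a gene that does not code for protein. It lay 3551 bp from the nearest protein-coding TSS. The gene of the Dpp pathway factor shn had 4 of 37, with 25, 29, 44 and 45 counts. In both genes an intronic region had counts like those of a promoter region, or more, though the Poisson intervals overlapped.

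CG46467 and CG9300 completed the 10 genes described region by region. CG46467, whose distal members also lie within Glut4EF, had counts of 27, 45, 30 and 36 on 3R. The 4 regions nearest to CG9300 on 3L had 36, 27, 39 and 31 counts and were promoter regions of genes that do not code for protein, since the TSS of CG9300 was 3583 bp or more away. At lola, a BTB zinc finger gene with many promoters and the same number of selected regions, all 4 were promoter regions with 26 to 42 counts. The one with 27 counts was near the TSS of a gene that does not code for protein, 2298 bp from the nearest protein-coding TSS.

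A further 11 genes had 4 regions each. These were Diap1, which encodes an inhibitor of cell death, CG45071, the ecdysone response genes Eip74EF, Eip75B and br, the chromatin genes osa, tna and ph-p, the Wnt receptor gene fz, the Fos gene kay and mamo, none of whose regions, all intronic, had more than 22 counts. The 4 members of ph-p made up 57.1% of its 7 listed regions, and those of br 4.88% of 82. Another 37 genes had 3 regions. At ttk they had 77, 34 and 34 counts and were all promoter regions. EcR, the ecdysone receptor gene, had 29, 40 and 21 counts, all inside the gene and distal. The receptor gene N (Notch) had 29 counts at its TSS and 23 and 28 in an intron, and its ligand gene Ser had 29, 21 and 32. At gl, a zinc finger gene of photoreceptor differentiation, the counts were 29, 23 and 30. At brk, a repressor in the Dpp pathway, all 3 regions lay inside the neighbouring gene CG1677, with 24, 23 and 30 counts. Each of these genes, ttk apart, had regions whose Poisson intervals overlap. The others included dsx, cic, fz2, bowl, brat, jing, Tlk and vri.

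**Figure D4:**
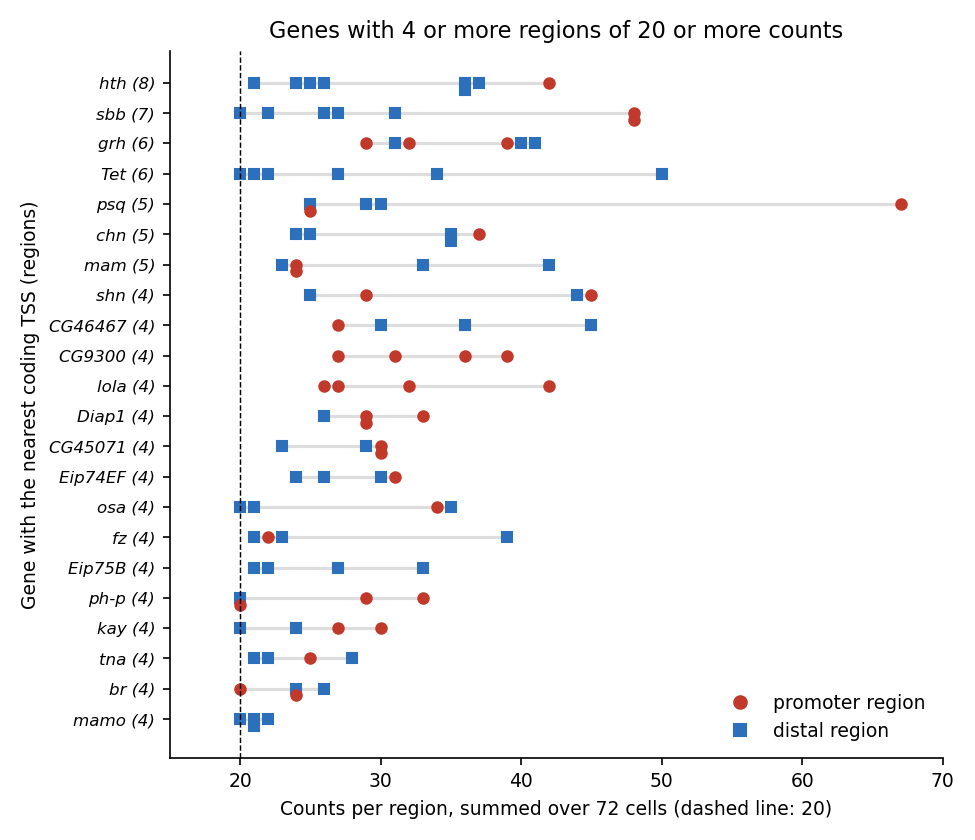
Counts of each selected region, summed over 72 cells, at the 22 genes with 4 or more of them, with promoter regions as circles and distal regions as squares (the number per gene is in brackets). The gene hth has 8 regions between 21 and 42 counts, and psq has the highest single region of the plot, with 67.

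Some selected regions adjoined each other. Of the 1139, 17.7% lay in 93 runs of 2 or more that were next to each other in the list, with no listed region between them and gaps of up to 1 kb, and 13 runs had 3 or more. The longest by this rule had 4 regions. One spanned 7.16 kb of the Enhancer of split complex on 3R, whose genes are Notch targets, from E(spl)mbeta-HLH to E(spl)malpha-BFM, with 23, 54, 24 and 58 counts. A second, at Trl and the overlapping gene CG42507, spanned 4.27 kb with 37, 30, 47 and 31 counts. The last, intergenic between CG13334 and CG42807 on 2R from 13563577 to 13567208, had 24, 50, 24 and 26 counts and no promoter region. The 1743 unselected regions within 1 kb of a selected one had 4.5 counts per kb, against 2.07 in unselected regions elsewhere, and this held for promoter (6.5 against 3.44) and distal regions (3.66 against 1.65). By the gap alone, allowing unselected regions between, 20.6% of the regions lay in runs, and 16 runs had 3 or more. The longest then had 5, as the region nearest to E(spl)mgamma-HLH with 42 counts joined the Enhancer of split run, and grh, Diap1 and ph-p had runs of 4. The part of the region boundaries in these runs was not tested.

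At the genes behind the sort, coverage differed. Of 9 listed regions of sens on 3L, 1 was selected, the region from 13397454 to 13399385 inside the gene, with 40 counts in 22 cells (0 to 5 per cell). The TSS region of sens had 17 counts in 14 cells and stayed below the limit. The copy of the enhancer in the reporter and the native one cannot be told apart by mapping. At atonal (ato), none of 5 listed regions was selected, and the TSS region had 6 counts in 5 cells.

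Signalling pathways of the disc were represented by many genes, which were read against 7.36% of all genes with a listed region. These and the following lists were chosen with earlier results of these data known, so their shares are descriptions only. Of 16 genes of Notch signalling, 11 had a selected region. Their median highest region, by the same counts that the selection used, was 28 counts, against 4 for all genes. The regions included 54 counts at a TSS of E(spl)mbeta-HLH, a Notch target, 42 at mam and 32 in an intron of Delta, the ligand. For EGF receptor and Ras signalling the count was 6 of 17, led by spi, by a distal region of the receptor gene Egfr (49 counts) and by aop, an Ets repressor (49 counts). For the Dpp pathway it was 6 of 11 (shn, dally, tkv, brk, dpp and bi), for Hedgehog 4 of 9 with ci at 37 and ptc at 36 counts, and for Wingless 5 of 13 with fz at 39. In the Hippo pathway it was 6 of 13, with ds, sd, which encodes the TEAD factor of the pathway (47 counts), and ft (34). Most of these lists hold genes with many listed regions, with medians of 10 for Notch, 14 for EGF receptor, 12 for Dpp, 13 for Wingless and 10 for Hippo genes, against 3 for all genes, while Hedgehog genes had a median of 1. Per listed region, 10.3% were selected for Notch, 3.53% for EGF receptor, 9.23% for Hedgehog, 5.48% for Dpp, 4.48% for Wingless and 6.82% for Hippo genes, against 1.66% of all regions.

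Lists of other functions differed in how far they stood from the background. Of 13 retinal determination genes, which specify the eye field, 8 had a selected region, with 41 counts at dac and 39 at Optix and at tio. Of 14 BTB zinc finger genes, 10 had one, and of 13 ecdysone response genes 7, with EcR at 40. Of 16 Polycomb and Trithorax genes, 7 had one, with Psc at 53, kis at 51 and ph-d at 43 counts. Cell cycle genes had 5 of 17, led by E2f1 with an intronic region of 34 counts. Epithelial junction and polarity genes had 7 of 16, with 44 counts in an intergenic region 8290 bp from the TSS of shg, the gene of E-cadherin. Axon guidance genes had 7 of 19, none above 31 counts. Per listed region, 14.7% were selected for Polycomb and Trithorax, 5.81% for retinal determination, 5.77% for BTB, 5.37% for junction, 4.37% for ecdysone and 3.97% for cell cycle genes, against 1.66% of all regions. For axon guidance genes, with a median of 21 listed regions, it was 1.75%, near that of all regions. Medians of listed regions were also high for retinal determination (17), BTB (22.5) and ecdysone genes (26).

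Stress genes, which dissociation can induce, formed 2 short lists, read against 7.36% of all genes. Of 10 JNK and AP-1 genes, kay and egr (20%) had a selected region, with 30 and 27 counts at most. Of 8 heat shock genes with a listed region, 3 had one (37.5%), with 25 counts near DnaJ-1 and 24 each near Hsp26 and Hsp23. Per listed region this was 5.88% for JNK and AP-1 and 13% for heat shock genes, on 5 and 3 regions, against 1.66% of all regions. On 2 and 3 genes, these shares are only loosely fixed. The JNK and AP-1 genes had a median of 6 listed regions and the heat shock genes 1.5, against 3 for all genes. The part of the enzymatic dissociation in these values was not tested.

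Genes of adult sensory function and of translation had a region in 1 case each. Of 12 opsin and phototransduction genes only Rh5 had a selected region (8.33%, with 41 counts), and it contained the TSS of another gene, 4666 bp from that of Rh5. Of 86 ribosomal protein genes only RpLP2 had one (29 counts, 1977 bp from its TSS), and of 87 olfactory and gustatory receptor genes only Gr93a (25 counts, intergenic, 4722 bp away). The shares of 1.16% and 1.15% for these large lists stood below the 7.36% of all genes, while the 8.33% of the opsin list was near it. Per listed region, 1.56% were selected for opsin and phototransduction, 0.382% for ribosomal protein and 0.205% for receptor genes, against 1.66% of all regions. Ribosomal protein genes had a median of 2 listed regions and 4 counts in the highest.

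Markers of several cell types had selected regions, read against 7.36% of all genes. Of 10 R8 and furrow markers, sens, Delta and emc had a selected region, and ato, boss, sca, neur, dap, ro and da had none. The cells were sorted by an enhancer of sens, so the place of sens in this list is not independent of the sort. Of 10 photoreceptor markers, chn, l(3)neo38, gl (3 regions, up to 30 counts) and lov had one, and of 8 late photoreceptor and cone markers, ct and B-H2. The glial list (5 genes, repo among them) and the hemocyte list (4 genes with a listed region) had none, and their median highest regions had 5 and 3 counts. With 25 and 14 listed regions in all, these lists are too small to tell an absence of selected regions from the 1.66% of all regions. Antennal markers had 6 of 10, with disco, hth, salm, dan, danr and ss, and the adepithelial and muscle list 3 of 5, with how, Mef2 and zfh1, the last in a region inside wts. Per listed region this was 7.69% for photoreceptor, 2.63% for late photoreceptor and cone and 3.45% for R8 and furrow markers. It was 4.31% for antennal markers, whose genes had a median of 28 listed regions, and 4.6% for the adepithelial list, against 1.66% of all regions. Several of these antennal genes also act in the eye or head part of the disc, and the part of cells other than R8 in the sort was not tested.

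The arms contributed unequally. On 2R, 2.2% of 12024 listed regions were selected (1.96 to 2.48%), and on X 1.19% of 13572 (1.02 to 1.39%). The arms 2L, 3L and 3R had 1.51, 1.71 and 1.73%. Listed regions were shorter on X, with a median of 799 bp, than on the autosomal main arms (907 to 946 bp). Over all listed regions the density of counts on X was 2.86 counts per kb against 2.34 to 2.62. Chromosome 4 had 8 selected regions, among them a pair nearest to ci with 37 and 20 counts, and Y had 1, at ORY, with 28 counts in 26 cells.

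Base composition differed little. The median GC content was 42.7% in selected regions and 40.5% in the others, and bases marked as repeats made up 18.7 and 16.9% at the median. Regions of more than 50% repeats were 7 of the 1139 (0.615%), against 1.76% of the others. The longest member, at the centromeric end of 3R, was one of the 7.

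Motif cores gave the clearest difference in sequence. Windows of the central 300 bp, equal in length for all regions, were searched on both strands for 10 cores, none of which contains another, and shorter regions were left out. GAGAGAG was found in 25.4% (22.3 to 28.8%) of 686 selected promoter regions, against 5.94% (5.59 to 6.31%) of the other promoter regions. In distal regions it was found in 17.7% (14.4 to 21.4%) of 453, against 4.52% (4.33 to 4.71%). Selected windows thus held the core 4.27 and 3.91 times as often, and the intervals do not overlap. Within lengths of 1000 to 1500 bp alone the shares were 29.3 against 6.28% for promoter and 16.6 against 4.36% for distal regions.

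The share with GAGAGAG was higher in regions with more counts below the limit as well. In promoter regions it was 3.81% without a count, 3.28% at 1 count, 4.70% at 2 to 4 counts, 8.26% at 5 to 9 and 15.2% at 10 to 19. Above the limit it was 20.3% at 20 to 24, 26.7% at 25 to 29, 32.9% at 30 to 39, 27.3% at 40 to 49 and 30.3% at 50 to 78 counts, with intervals that overlap between neighbours, so no further increase was resolved above 30 counts. In distal regions it was 3.48% without a count, 11.9% at 10 to 19 counts and 22.8% at 30 to 39. At 40 to 49 counts it was 11.1% on 36 distal regions, with an interval of 4.41 to 25.3%. The core is a short repeat, and a match says nothing about binding.

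**Figure D5:**
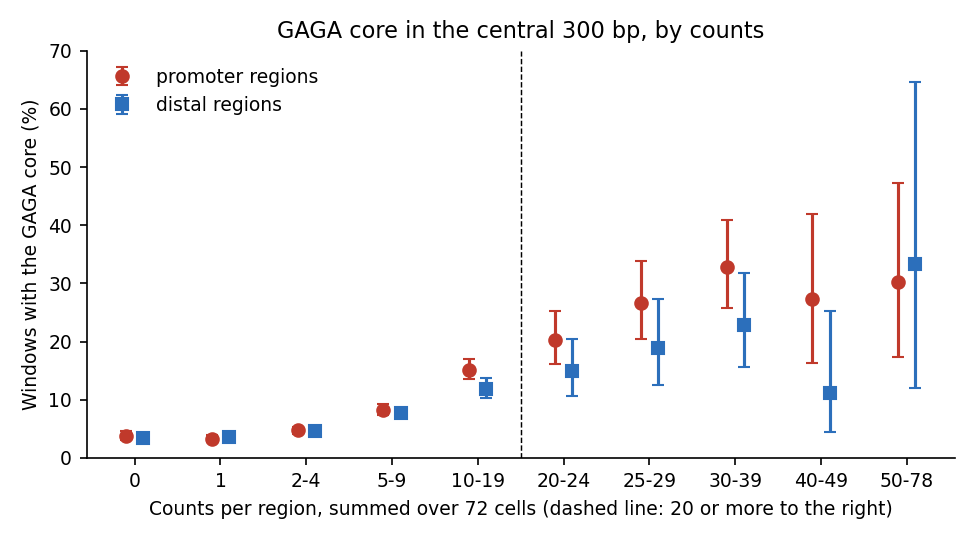
Share of central 300 bp windows that hold GAGAGAG on either strand, by class of counts per region, for promoter and distal regions, with 95% Wilson intervals. The share in promoter regions is 3.81% without a count, 32.9% at 30 to 39 counts and 30.3% at 50 to 78.

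The other cores differed less or in the opposite direction. ACCGGTT of Grainyhead was in 2.92% (1.90 to 4.46%) of selected promoter regions, against 1.64%, and in 2.21% (1.20 to 4.02%) of distal ones, against 1.06%, on 20 and 10 regions. At lengths of 1000 to 1500 bp, ACCGGTT was in 3.18% (1.68 to 5.93%) of selected promoter regions, against 1.45% (1.14 to 1.85%). In distal regions it was 2.01% (0.784 to 5.05%), against 0.897% (0.751 to 1.07%), so the intervals overlapped in both classes at these lengths. TATCGATA, the core of the factor DREF of housekeeping promoters, was in 0.729% (0.312 to 1.69%) of selected promoter regions, against 3.05%. GATAAG, bound by GATA factors, was in 8.75% (6.86 to 11.1%), against 15.0%. Within lengths of 1000 to 1500 bp alone, TATCGATA was in 0.707% (0.194 to 2.54%) of selected promoter regions, against 1.39%. GATAAG was in 9.89% (6.93 to 13.9%) of them, against 13.3%, so neither difference was resolved at these lengths. The E-boxes, which proneural factors such as Atonal bind, were as frequent as elsewhere within their intervals: CAGGTG was in 9.71% (7.32 to 12.8%) of selected distal regions, against 9.49%, and CAGCTG in 14.6% (11.6 to 18.1%), against 12.4%. TGANTCA of AP-1, GTGGGAA of Su(H), the effector of Notch, and TGATAC of Sine oculis were in 5.96, 4.64 and 3.75% of selected distal regions, against 5.78, 4.29 and 5.62%. GGTCACACT, known as Motif 1 of core promoters, was in 1.17% of selected promoter regions, against 1.67%, within its interval (0.592 to 2.28%).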

How the data were processed

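Single-cell ATAC-seq was performed by the authors with the Fluidigm C1, in which single cells are caught in chambers of a chip. According to the study's methods and processing notes, reads were trimmed, mapped with Bowtie2 2.2.5 to FlyBase release 6 (dm6), sorted with SAMtools 1.2 and deduplicated with Picard, and cells were filtered manually. The authors deposited raw counts per region and cell, without normalisation, for regions cut from the non-coding genome by conservation. The counting tool, the counting of reads or fragments and any shift for Tn5 are not given in the sources used here. All 72 cell columns matched a title, 0 were left unused, and the other cells of the 384 in the labels were not analysed here.

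Counts were summed over cells with Python 3.11.15, pandas 2.3.3, numpy 2.4.6 and scipy 1.17.1. The depth was 908 to 5892 counts per cell. TSS, exons and genes were taken from the Ensembl 115 annotation of BDGP 6 without transposable elements, and sequence and repeat masking from RefSeq. Every chromosome end lay beyond the last region. Starts are printed from 1. For Dl, the annotation's symbol Delta was used. Shares have 95% Wilson intervals, counts exact Poisson intervals and medians intervals from order statistics. Statistics were checked on simulated data.

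Members and gene lists were chosen with earlier results of these data known. Genes and regions were named by rule: genes with 4 or more selected regions, 10 of them region by region, the 15 regions with most counts, 5 promoter and 5 distal regions with most cells, the 5 with fewest, the 5 farthest from a TSS, the 3 shortest and 3 longest, list genes with a member, and sens and ato. Alternatives were other thresholds, weights, cells, chromosomes, TSS definitions and windows.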

Additional observations from a re-analysis of the deposited data

How the results depend on the processing

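Of the alternative values for the 7 main results, 31 stayed within the counting interval of the reported value, or within 1.5 times for counts, and 30 moved. One of the 31, the number of regions when as many are taken by counts per kb, was fixed by construction. Most moved by construction, since the alternative is another selection. With 15 or more counts 3.11% of the listed regions passed and 160 genes had 3 or more, with a median of 15 cells, 1170 bp and 18.1 counts per kb, and 24.9% of all counts. With 30 or more counts 0.532% passed and 9 genes had 3 or more, with 24 cells, 1380.5 bp, 26.8 counts per kb and 7.19% of counts. With each region counted once per cell and 20 or more cells 0.689% passed and 15 genes had 3 or more, with 23 cells, 1335.5 bp, 17.9 per kb and 7.03% of all entries above 0. All 15 of these genes were among the 59. With as many regions taken by counts per kb, the promoter share was 57.2%, with 16 cells, 834 bp, 24.5 counts per kb and 14% of counts, and 38 of its 61 genes were among the 59. The share of counts was 16.1% in each case with cells scaled to equal totals, without the deepest cell and without the cells under 1000 counts. The promoter share was 52.6% with 100 bp, 65.4% with 1000 bp and 53.8% with protein-coding TSS only, and 38 genes had 3 or more with the nearest TSS of any gene. With windows of 500 bp, 13 of 20 motif differences stayed and 7 moved, while GAGAGAG remained more frequent in the selected regions, by 25.7 percentage points in promoter and 17 in distal regions. Differences of under 1.1 points changed sign for CAGGTG, AP-1 and Motif 1 in distal and CAGCTG in promoter regions. The limit of 10 bases for exon and coding overlap (2.90 and 0.351% of the selected regions, in place of 6.76 and 35.9% with any base) and runs by gap alone (20.6% in place of 17.7%) were chosen after seeing the data. No paired analysis was possible because all cells form a single group. Depth limits single regions, since 20 counts have a Poisson interval of 12.2 to 30.9, and membership near the limit is not resolved.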
